A study of Homo sapiens with 4 samples.

Results

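The 9 genes described here encode the MHC class I heavy chains HLA-B, HLA-C, HLA-E and HLA-F, the shared light chain B2M, the peptide transporter subunits TAP1 and TAP2, the loading factor tapasin (TAPBP) and the transcriptional activator NLRC5. They were chosen by gene symbol, as the rows of the count table that carry these names. They are 9 of the 56304 genes in the table, and all 9 had enough counts to enter the test over 15529 genes. The RNA was that of MV3, a human melanoma cell line in long use, which carried a stable histone H2B-GFP label in every sample. Cells were grown as spheroids of 50000 cells with a diameter of 1 mm in collagen I. On day 2 after embedding, the non-migratory core was taken with a punch of 1 mm and the surrounding invasion zone with a punch of 3 mm, and bulk RNAseq was performed on 2 libraries per zone. A punch separates the zones by their distance from the centre only, and a core sample can therefore hold cells that had migrated up or down. The comparison asks how the expression programs of invading cells differ from those of the core.

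Classical class I molecules, such as HLA-B and HLA-C, present peptides from inside the cell to cytotoxic T cells, and the non-classical HLA-E is read by receptors on natural killer cells. Peptides are cut by the proteasome, moved into the endoplasmic reticulum by the TAP1 and TAP2 heterodimer and loaded with the help of tapasin onto a heavy chain paired with B2M. Interferon signalling acts on many of these genes together through interferon regulatory factors, and NLRC5 joins the factors bound to class I promoters. Tumours, melanoma included, are known for varying in the level of class I on their surface.

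The library totals were 36363358 and 14983135 counts for core replicates 1 and 2 and 37591782 and 11789243 counts for invasion zone replicates 1 and 2. Values are given as normalized CPM, in which counts are divided by the library total after TMM scaling and put on a common scale. The melanocytic genes SOX10 and TYR had 0 counts in all 4 libraries, where 3 counts correspond to 0.0800 to 0.252 CPM, and MITF lay between 1.71 and 3.36 CPM. AXL, a receptor tyrosine kinase of dedifferentiated melanoma, stood at 632 and 628 CPM in the core against 1222 and 1120 CPM in the invasion zone. The other markers of that state were mixed. EGFR was at 135 and 192 CPM in the core against 195 and 207 CPM in the invasion zone. WNT5A went the other way, at 180 and 81.2 CPM against 54.0 and 17.9 CPM, and NGFR had only 2 and 1 counts against 1 and 0. Melanocytic markers were thus absent or low and do not by themselves show the labelled cell type.

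Promoter sequence was taken from RefSeq (GRCh38.p14) for the 7 genes with an entry, as the 250 bases before the RefSeq start. That start can differ from the GENCODE interval given further below, and the windows of HLA-B and HLA-F lie wholly inside the intervals of these genes. HLA-E and NLRC5 are not among them. Of the 7, 6 are shown because their genes carry the comparison, with HLA-B and HLA-C as heavy chains, B2M as the light chain, TAP1 beside TAP2 as partners that differed in direction, and TAPBP as the loading factor. The windows are HLA-B at chr6:31357180-31357429 (minus strand), HLA-C at chr6:31272093-31272342 (minus strand), B2M at chr15:44711267-44711516 (plus strand), TAP1 at chr6:32853705-32853954 (minus strand), TAP2 at chr6:32838740-32838989 (minus strand) and TAPBP at chr6:33314079-33314328 (minus strand). Each is written 5′ to 3′ on the strand of its gene, and capitals mark matches to AANNGAAA, the core letters of interferon regulatory factor sites, on either strand, so that a match on the opposite strand reads as its reverse complement.
HLA-B: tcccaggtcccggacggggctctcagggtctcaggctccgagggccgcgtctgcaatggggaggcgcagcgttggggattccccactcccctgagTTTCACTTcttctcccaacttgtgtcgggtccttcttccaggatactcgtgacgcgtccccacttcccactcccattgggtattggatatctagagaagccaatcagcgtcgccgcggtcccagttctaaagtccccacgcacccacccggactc
HLA-C: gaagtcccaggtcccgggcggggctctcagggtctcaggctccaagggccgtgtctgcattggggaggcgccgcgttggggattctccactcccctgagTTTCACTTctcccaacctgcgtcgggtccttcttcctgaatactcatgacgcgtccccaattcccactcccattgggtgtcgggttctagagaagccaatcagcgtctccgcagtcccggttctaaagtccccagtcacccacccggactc
B2M: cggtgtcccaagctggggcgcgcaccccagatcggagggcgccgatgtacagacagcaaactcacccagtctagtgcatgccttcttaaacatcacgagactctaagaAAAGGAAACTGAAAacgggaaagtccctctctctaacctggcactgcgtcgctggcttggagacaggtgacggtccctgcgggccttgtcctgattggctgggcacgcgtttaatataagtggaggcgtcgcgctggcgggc
TAP1: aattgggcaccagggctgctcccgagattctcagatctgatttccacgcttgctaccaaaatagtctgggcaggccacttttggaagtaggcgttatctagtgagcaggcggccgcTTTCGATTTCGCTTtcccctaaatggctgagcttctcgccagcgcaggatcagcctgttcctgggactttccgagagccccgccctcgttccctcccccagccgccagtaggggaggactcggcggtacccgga
TAP2: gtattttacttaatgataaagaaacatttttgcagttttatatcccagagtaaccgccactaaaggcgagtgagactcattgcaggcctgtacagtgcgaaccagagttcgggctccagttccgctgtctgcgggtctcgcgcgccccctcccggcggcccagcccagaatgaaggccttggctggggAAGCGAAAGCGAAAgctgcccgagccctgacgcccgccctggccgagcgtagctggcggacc
TAPBP: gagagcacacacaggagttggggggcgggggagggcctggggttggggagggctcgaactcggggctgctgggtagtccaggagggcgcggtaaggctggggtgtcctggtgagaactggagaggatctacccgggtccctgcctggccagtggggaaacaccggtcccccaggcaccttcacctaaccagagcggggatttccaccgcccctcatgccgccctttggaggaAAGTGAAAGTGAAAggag

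The letters AANNGAAA were present in the windows of 7 of the 7 genes, HLA-F included, against 20.3% of 35116 RefSeq promoter windows of the same length. TAP1 has a second RefSeq window, at chr6:32852762-32853011 (minus strand), without these letters, so that 7 of 8 windows of the group held them. HLA-B, HLA-C and HLA-F held a single match, between 156 and 144 bases before the start, and B2M, TAP1, TAP2 and TAPBP each held a pair of matches that overlap by 2 bases. The pair lay from -142 to -129 in B2M, from -134 to -121 in TAP1, from -62 to -49 in TAP2 and from -18 to -5 in TAPBP, counted back from the RefSeq start. The letters CCAAT were found in 5 of the 7 windows, all but TAP2 and TAPBP, and in 32.0% of all windows. TGACG was found in HLA-B, HLA-C, B2M and TAP2, 4 of the 7, and in 21.2% of all windows. GGGACTTTC, 1 spelling of NF-kappaB type letters, was found in B2M and TAP1, 2 of the 7, and in 0.325% of all windows. Other spellings were not searched, so this count does not show that the remaining windows lack letters of that type. Both strands were searched for every motif. A match describes the letters of the window and not a site in use, and the motifs were chosen after the windows had been seen. The windows of HLA-B and HLA-C were identical at 226 of 254 aligned columns (89.0%), and those of TAP1 and TAP2 at 51.9%.

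In the invasion zone, 7 of the 9 genes lay below the core in both libraries. These were HLA-B, HLA-C, HLA-E, B2M, TAP1, TAPBP and NLRC5. TAP2 was the exception, for which the invasion zone was the higher in each pairing of libraries, and HLA-F overlapped between the zones. Over all genes tested, 30.3% had each invasion zone library lower than each core library and 28.1% had each of them higher. The median log2 fold change of the 9 genes was -0.75 (invasion zone over core), beside -0.01 over all genes tested, and 8 of the 9 were fitted lower and 1 higher.

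The quasi-likelihood test of edgeR without a replicate term called 0 of the 9 genes lower and 0 higher at an adjusted p under 0.05 with a 2-fold change, and the same rule called 0% of all genes in either direction (smallest adjusted p 0.128). At an unadjusted p under 0.05 without a fold minimum, 5 of the 9 were lower (HLA-B, HLA-C, HLA-E, TAP1 and TAPBP) and 0 were higher, while 12.4% of all genes were lower and 11.9% higher. HLA-B and HLA-E also passed the 2-fold change there. With the replicate number added as a block, HLA-B and HLA-E were called lower, 2 of 9 genes against 7.06% of all genes, and 0 were called higher against 3.41%. At the adjusted p alone, the block called 7 of the 9 lower and 0 higher, where it called 19.4% of all genes lower and 19.4% higher. DESeq2 without a block called the same pair of genes lower at 2-fold, against 3.53% of all genes, and 4 of the 9 at the adjusted p alone (HLA-B, HLA-C, HLA-E and TAPBP), against 5.64%. The block leaves 1 residual degree of freedom and the test without it 2, so both borrow the spread from all genes. All of these genes were measured in bulk RNA, in which fewer cells of a kind and less RNA per cell cannot be told apart.

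**Figure D1:**
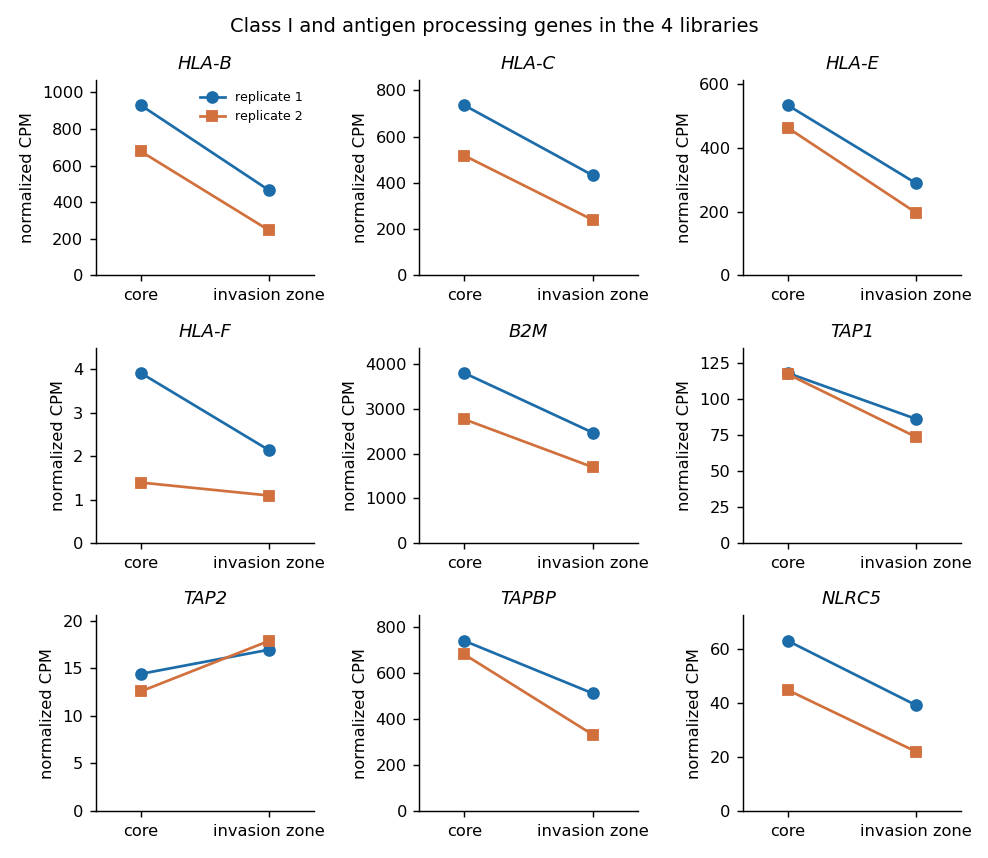
Normalized CPM (linear axis from 0) of each of the 9 genes in the core and the invasion zone, with a line joining libraries that share a replicate number. The lines slope down for 8 genes and up for TAP2, and replicate 2 (squares) lies below replicate 1 (circles) in the core for all 9 genes.

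Among the heavy chains, HLA-B showed the largest difference between the zones. Its level was 929 and 677 CPM in the core against 464 and 245 CPM in the invasion zone, for replicates 1 and 2. Neither invasion zone library reached a core library, and within the replicates the invasion zone stood at 49.9% and 36.2% of the core. The means were 803 ± 178 CPM for the core and 355 ± 155 CPM for the invasion zone (SD, n = 2 each). The log2 fold change was -1.18 (SE 0.34), with an edgeR adjusted p of 0.151 without the block. With the block it was -1.23 (SE 0.11, edgeR adjusted p 0.000104), and DESeq2 without the block gave an adjusted p of 0.00723.

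HLA-C, the other classical chain of the group, was at 736 and 518 CPM in the core against 433 and 240 CPM in the invasion zone. The core and invasion zone values did not overlap, but core replicate 2 was only modestly above invasion zone replicate 1. Its log2 fold change of -0.90 (SE 0.33) did not pass the test without the block (edgeR adjusted p 0.186). The blocked value of -0.94 (SE 0.09) had an edgeR adjusted p of 0.000163 and stayed under the 2-fold change.

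HLA-E, whose groove mainly holds peptides from the leader sequences of other class I chains, had 535 and 464 CPM in the core against 289 and 197 CPM in the invasion zone. Neither invasion zone library came near the core range, at 54.1% and 42.4% of the core of the same number. For HLA-E the log2 fold change was -1.04 (SE 0.23), and the edgeR adjusted p of 0.130 was the lowest among the 9 genes without the block. The block gave -1.06 (SE 0.09, edgeR adjusted p 0.00011), and DESeq2 without the block gave an adjusted p of 0.0016.

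HLA-F, a non-classical chain, had the lowest counts of the group. It had 140 and 21 counts in the core and 80 and 13 counts in the invasion zone, which is 3.91 and 1.39 CPM against 2.13 and 1.09 CPM. The zones overlapped, since invasion zone replicate 1 exceeded core replicate 2. The log2 fold change of -0.70 (SE 0.62, edgeR adjusted p 0.526) turned to 0.26 when core replicate 1 was left out, and a difference between the zones was not detected beyond the spread of the libraries.

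Summed over HLA-B, HLA-C, HLA-E and HLA-F before scaling, the heavy chain level was 2204 and 1660 CPM in the core against 1188 and 683 CPM in the invasion zone. The sum was lower in both invasion zone libraries than in either core library. Its log2 fold change was -1.05 (SE 0.31, edgeR adjusted p 0.152) without the block and -1.09 (SE 0.10, edgeR adjusted p 0.000122) with it. The sum does not depend on how reads were divided among these 4 similar genes.

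B2M, the light chain that pairs with class I heavy chains, was the most abundant transcript of the group. It stood at 3798 and 2765 CPM in the core against 2468 and 1697 CPM in the invasion zone. The invasion zone was at 65.0% of the core in replicate 1 and at 61.4% in replicate 2, a closer pair of values than for any heavy chain. The log2 fold change was -0.66 (SE 0.26, edgeR adjusted p 0.206) without the block and -0.66 (SE 0.07, edgeR adjusted p 0.000231) with it.

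The transporter subunits differed in direction. TAP1 had 118 and 117 CPM in the core against 85.9 and 73.5 CPM in the invasion zone. The core libraries almost coincided, with a mean of 117 ± 0.546 CPM, and the invasion zone mean was 79.7 ± 8.82 CPM (SD, n = 2 each). Its log2 fold change was -0.56 (SE 0.15, edgeR adjusted p 0.136) without the block and -0.56 (SE 0.09, edgeR adjusted p 0.0015) with it.

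TAP2 was at 14.4 and 12.6 CPM in the core against 17.0 and 17.9 CPM in the invasion zone. It was the only one of the 9 with both invasion zone libraries higher, and it was the only one for which invasion zone replicate 2 was above replicate 1. The log2 fold change of 0.36 (SE 0.19, edgeR adjusted p 0.291) did not pass the test without the block, nor did 0.36 (SE 0.15, edgeR adjusted p 0.0911) with it. Leaving out single libraries gave values from 0.28 to 0.48.

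Tapasin, which bridges the transporter and the empty heavy chain, was encoded by TAPBP at 741 and 682 CPM in the core against 512 and 332 CPM in the invasion zone. The core libraries were close together and the invasion zone libraries were apart, at 69.1% and 48.7% of the core of the same number. For TAPBP the log2 fold change was -0.75 (SE 0.24, edgeR adjusted p 0.157) without the block and -0.78 (SE 0.11, edgeR adjusted p 0.000818) with it.

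NLRC5, the activator of class I promoters, was at 63.0 and 44.8 CPM in the core against 39.2 and 21.9 CPM in the invasion zone. Core replicate 2 and invasion zone replicate 1 were separated by a small margin. NLRC5 had a log2 fold change of -0.81 (SE 0.32, edgeR adjusted p 0.207) without the block and -0.84 (SE 0.12, edgeR adjusted p 0.000693) with it.

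**Figure D2:**
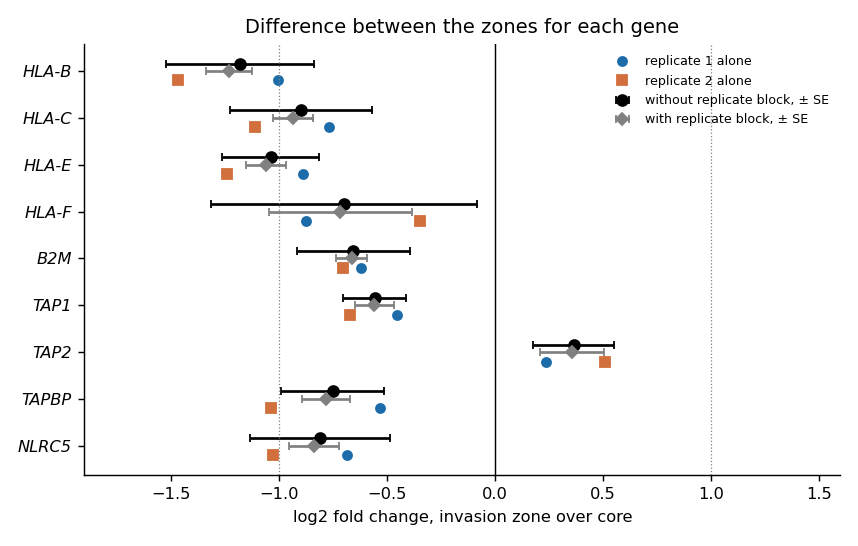
Difference between the zones for each gene on a log2 scale (invasion zone relative to core), as fitted by edgeR without (black) and with (grey) the replicate block, with bars of 1 SE, and as the plain log2 ratio of normalized CPM within replicate 1 and replicate 2. Dotted lines mark a 2-fold change, and HLA-B and HLA-E are the genes whose fitted values lie beyond it on the lower side, at -1.18 and -1.04 without the block.

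The 2 replicates differed in size but not in direction. The median log2 ratio of invasion zone to core over the 9 genes was -0.69 in replicate 1 and -1.03 in replicate 2, and 7 of the 9 genes had the lower ratio in replicate 2. HLA-E gave -0.89 and -1.24 and TAPBP gave -0.53 and -1.04, whereas B2M gave -0.62 and -0.70. Levels were also lower in replicate 2 than in replicate 1 within a zone, for 9 of 9 genes in the core (median log2 ratio -0.46) and for 8 of 9 in the invasion zone (median -0.62). Shares over all genes were not taken for these counts between replicates, so they do not show a trait of these 9 genes. Both replicate 2 libraries were the shallower ones, and the part of depth in the lower levels was not tested. With invasion zone replicate 1 left out, the edgeR test called 5 of the 9 genes lower (HLA-B, HLA-C, HLA-E, TAPBP and NLRC5), against 7.6% of all genes tested there. With core replicate 2 left out it called 4 (the same without TAPBP), against 3.82%. Without core replicate 1 it called 0 of the 9 against 0.838%, and without invasion zone replicate 2 it called 0 against 1.98%. Leaving out 1 library also moved several log2 fold changes by over 1.5 times. Without invasion zone replicate 2 they were -0.54 for HLA-C, -0.41 for B2M, -0.47 for TAPBP and -0.47 for NLRC5. Without core replicate 1 they were -0.40 for B2M and -0.53 for NLRC5, and without invasion zone replicate 1 they were -1.39 for HLA-C and -1.30 for NLRC5.

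Per kilobase of the canonical transcript, the order of mean levels over the 4 libraries was B2M (2844 CPM per kb), HLA-B (377), HLA-C (312), TAPBP (164), HLA-E (146), TAP1 (36.7), NLRC5 (6.23), TAP2 (2.74) and HLA-F (1.44). B2M was above every other gene in each library, by its lowest value of 1800 CPM per kb against a highest value of 605 CPM per kb for HLA-B. HLA-B and HLA-C overlapped in range, and so did TAPBP and HLA-E, at 96.3 to 215 and 77.2 to 210 CPM per kb. TAP1 was set apart from both neighbours, at 27.4 to 43.9 CPM per kb. TAP2 and HLA-F overlapped, and HLA-F was the higher of the pair in core replicate 1, at 2.64 against 2.56 CPM per kb. TAP2 shares 35.3% of its windows of 50 bases with other genes, mostly with an overlapping gene model on the same strand. Reads lost there would lower its level per kilobase and raise the ratio of TAP1 to TAP2, which was not tested. Reads were aligned to the hg38 reference, and loss of reads where the MV3 alleles differ from it was not tested either.

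Ratios within a library do not depend on its scaling. TAP1 had 8.16 and 9.29 counts per TAP2 count in the core and 5.06 and 4.10 in the invasion zone, or 17.2 and 19.5 against 10.6 and 8.62 per kilobase of transcript. B2M had 1.72 and 1.67 counts per summed heavy chain count in the core and 2.08 and 2.49 in the invasion zone. HLA-B had 1.26 and 1.31 counts per HLA-C count in the core and 1.07 and 1.02 in the invasion zone. The zones did not overlap for any of these 3 ratios, which for TAP1 over TAP2 follows from the levels already given. For each of the 3, an exact two-sided permutation test gave p = 0.333. That is the smallest value that 2 against 2 libraries allow, so no ratio could pass a threshold of 0.05. HLA-E made up 24.3 and 27.9% of the summed heavy chain counts in the core and 24.3 and 28.8% in the invasion zone, and there the zones overlapped.

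**Figure D3:**
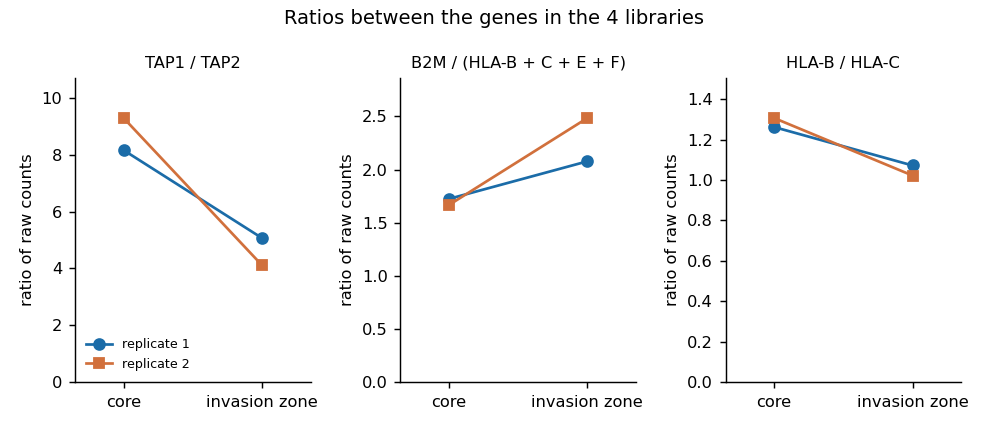
Ratios of raw counts within each library (linear axis from 0) for TAP1 over TAP2, B2M over the sum of HLA-B, HLA-C, HLA-E and HLA-F, and HLA-B over HLA-C, with lines joining libraries of the same replicate number. TAP1 per TAP2 is 8.16 and 9.29 in the core beside 5.06 and 4.10 in the invasion zone, and B2M per heavy chain count is 1.72 and 1.67 beside 2.08 and 2.49.

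The other genes of the pathway were counted over lists of 62 genes, of which 53 were tested. Of these, 45 were fitted lower and 8 higher in the invasion zone, their median log2 fold change was -0.61, and the edgeR test without the block called 0. With the block it called 19 lower and 1 higher at 2-fold, against 7.06% and 3.41% of all genes, and 36 lower and 2 higher at the adjusted p alone, against 19.4% in either direction. Without the block, 16 were lower and 1 was higher at an unadjusted p under 0.05 (12.4% and 11.9% of all genes), and DESeq2 called 8 lower and 0 higher at 2-fold (3.53% of all genes were lower). MICA and MICB stand on 2 lists and are counted once in these totals. In the paragraphs on the lists, levels, medians and log2 fold changes are from edgeR without the block unless named as blocked. None of these genes passed there, and the adjusted p given is that of the blocked test.

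Of the other class I heavy chains and class I-like molecules, 7 of 8 were tested, of which 5 were fitted lower and 2 higher. FCGRT, the neonatal Fc receptor chain that also pairs with B2M, was at 178 and 150 CPM in the core against 75.4 and 39.7 CPM in the invasion zone, with a log2 fold change of -1.51 (blocked edgeR adjusted p 0.000126). MICA, a stress-induced ligand that binds neither peptide nor B2M, was at 27.0 and 29.9 CPM against 33.2 and 33.8 CPM, a log2 fold change of 0.24 that did not pass (blocked edgeR adjusted p 0.116). The block called FCGRT, HLA-G and MR1 lower at 2-fold, against 7.06% of all genes. Of these, HLA-G and MR1 were named after their values were seen.

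The chaperones and trimming enzymes of peptide loading were fitted lower in 6 of 6 cases, with a median of -0.47. The general chaperones stood closer to 0 than the 9 genes' median, with CANX (calnexin) at 1580 and 1792 CPM in the core against 1461 and 1646 CPM in the invasion zone, with a log2 fold change of -0.12 (blocked edgeR adjusted p 0.221). PDIA3, the disulfide isomerase of the loading complex, had a log2 fold change of -0.33 (blocked edgeR adjusted p 0.00645), and CALR (calreticulin) had -0.48 (blocked edgeR adjusted p 0.00153) with zones that overlapped. TAPBPL, a tapasin-related peptide editor named after its values were seen, was the only gene of this list called with the block, at a log2 fold change of -1.02. Over all genes, the block called 7.06% lower.

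Of the immunoproteasome subunits and its activator, 4 of 5 were fitted lower, with a median of -0.57. PSME1 was at 316 and 239 CPM in the core against 226 and 148 CPM in the invasion zone (log2 fold change -0.57, blocked edgeR adjusted p 0.000703), and its partner in the activator, PSME2, was at 172 and 143 CPM against 189 and 140 CPM (0.06, blocked edgeR adjusted p 0.643). The catalytic subunit PSMB8 had a log2 fold change of -0.54 (blocked edgeR adjusted p 0.0032). PSMB10, another catalytic subunit named after its values were seen, was the only one called with the block, at a blocked log2 fold change of -1.23. The block called 7.06% of all genes lower.

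Of the 14 regulators of class I transcription, 11 were fitted lower and 3 higher, with a median of -0.31. IRF1, an interferon regulatory factor, was at 211 and 130 CPM in the core against 95.4 and 37.3 CPM in the invasion zone, with a log2 fold change of -1.35 (blocked edgeR adjusted p 0.00015). The kinase JAK1 was at -0.16 (blocked edgeR adjusted p 0.106). The block called 2 of these genes lower at 2-fold, IRF1 and the class II activator CIITA, the latter named after its values were seen. It called 0 higher, and over all genes it called 7.06% lower and 3.41% higher.

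All 11 interferon-stimulated genes tested, of 12, were fitted lower, with a median of -1.10, and the block called 7 lower at 2-fold and 11 at the adjusted p alone, against 7.06% and 19.4% of all genes. DESeq2 without the block called 2 of the 11 lower, against 3.53%. The median log2 ratio of invasion zone to core over the 11 was -0.53 in replicate 1 and -2.41 in replicate 2. IFIT1, OAS1 and MX1, named after their values were seen, gave -0.53, -0.66 and -0.89 in replicate 1 and -2.88, -2.84 and -3.76 in replicate 2, and invasion zone replicate 2 was the lowest library for each of these 3. BST2 (tetherin) was at 573 and 565 CPM in the core against 437 and 361 CPM in the invasion zone, with a log2 fold change of -0.51 (blocked edgeR adjusted p 0.00144). IFI6 and ISG15 had log2 fold changes of -0.68 and -0.49 (blocked edgeR adjusted p 0.00115 and 0.0276), and invasion zone replicate 2 was the lowest library for both. The class II genes were at a far lower level, with 5 of 9 tested, 5 fitted lower and a median of -1.98. CD74, the invariant chain, was at 8.59 and 5.37 CPM in the core against 2.80 and 1.18 CPM in the invasion zone (blocked edgeR adjusted p 0.000972), HLA-DRB1 was at 2.46 and 2.12 CPM against 0.720 and 0.168 CPM (0.00656), and HLA-DMA was at 1.37 and 0.927 CPM against 0.800 and 0.420 CPM (0.164). The block called 4 of the 5 lower at 2-fold, against 7.06% of all genes. These were CD74, HLA-DRB1, HLA-DRA and HLA-DPA1, the last pair named after their values were seen. DESeq2 without the block called only CD74 lower, against 3.53%. Few counts lie behind these genes, with 88 and 32 in the core against 27 and 2 in the invasion zone for HLA-DRB1. HLA-DRA had 55 and 21 counts against 20 and 0, and HLA-DPA1 had 26 and 11 against 7 and 2.

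The ligands that natural killer and T cells read beside class I were mixed in direction. Of 10 genes, 7 were tested, 3 were fitted lower and 4 higher, with a median of 0.24. PVR, a ligand of the receptors DNAM-1 and TIGIT, was at 61.1 and 96.0 CPM in the core against 121 and 190 CPM in the invasion zone, with a log2 fold change of 0.99 (edgeR adjusted p 0.157 without the block and 8.43e-05 with it). NECTIN2, a relative that binds DNAM-1 too, was at 170 and 146 CPM against 146 and 130 CPM, a log2 fold change of -0.20 (blocked edgeR adjusted p 0.0735). The block called NCR3LG1 higher and RAET1G lower at 2-fold, both named after their values were seen, against 3.41% of all genes higher and 7.06% lower.

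**Figure D4:**
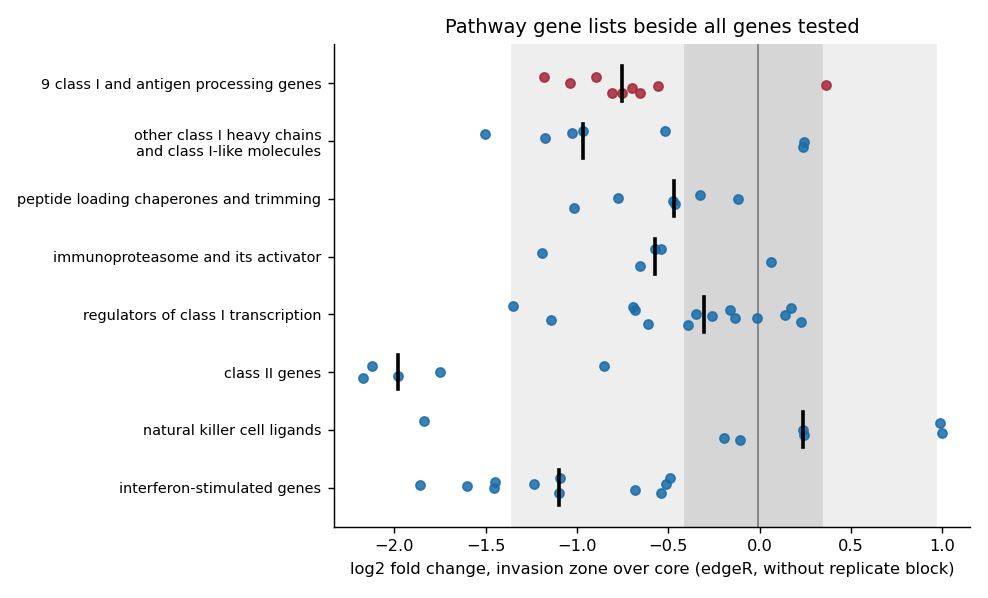
Fitted log2 fold change, invasion zone over core, of each tested gene (points) in the 9 class I and antigen processing genes and in the other pathway lists, with a black bar at each list's median. Dark and light bands span the 25th to 75th and the 5th to 95th percentile of all genes tested (-0.41 to 0.34 and -1.36 to 0.97), and the medians run from -1.98 for class II genes to 0.24 for natural killer cell ligands, with -0.75 for the 9 genes.

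Leukocytes carry much class I, and each of their marker genes was under 1.5 CPM in all libraries. Of 9 leukocyte markers, CD3D, CD3E, MS4A1 and NKG7 had 0 counts in all 4 libraries, FCGR3A had 1 count in all, and PTPRC was at 0.195 and 0.0662 CPM in the core against 0.0267 and 0 CPM in the invasion zone. CD79A was at 0.251 and 0.464 CPM against 0.160 and 0.168 CPM, and CSF1R was at 0.809 and 0.331 CPM against 0.586 and 0.420 CPM. CD14, a monocyte marker, moved in the direction of the class I genes, at 1.37 and 1.06 CPM (49 and 16 counts) in the core against 0.293 and 0.336 CPM (11 and 4 counts) in the invasion zone, with an edgeR adjusted p of 0.142 without the block and 0.0147 with it (blocked log2 fold change -2.02). Their summed level was 2.62 and 1.92 CPM in the core against 1.09 and 0.925 CPM in the invasion zone, beside 3798 and 2765 CPM of B2M in the core. The part of such transcripts in the class I values was not tested.

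On GRCh38 (GENCODE 44), 7 of the 9 genes lie in the MHC region of chromosome 6, HLA-F at chr6:29722775-29738528 (plus strand), HLA-E at chr6:30489509-30494194 (plus), HLA-C at chr6:31268749-31272130 (minus), HLA-B at chr6:31353872-31367067 (minus), TAP2 at chr6:32821833-32838739 (minus), TAP1 at chr6:32845209-32853816 (minus) and TAPBP at chr6:33299694-33314284 (minus). B2M lies at chr15:44711358-44718851 (plus) and NLRC5 at chr16:56989485-57083531 (plus). Only uniquely mapped reads were counted, and near-identical stretches can lose reads or lend them to a relative. Of all windows of 50 bases in the canonical transcript, 2.56% of HLA-B, 6.77% of HLA-C, 6.16% of HLA-E, 1.89% of HLA-F, 1.18% of TAP1 and 7.09% of TAPBP also occur in a transcript of another gene, and 0 of B2M or NLRC5. For TAP2 this share was 35.3%, mostly with ENSG00000250264, a gene model on the same strand that overlaps 2023 of 10357 exonic bases of TAP2 and held 1 count over the 4 libraries. HLA-B shares 1421 of 4623 exonic bases with DHFRP2 on the same strand, which held 3 counts, and TAP1 shares 672 of 4738 with the antisense gene PSMB8-AS1, which held 407 counts. The strand setting of the counting is not given in the sources used here, so reads of antisense partners cannot be told apart from those of the gene.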

How the data were processed

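Bulk RNAseq was performed on dissected zones of MV3 spheroids, with 2 libraries per zone. The authors deposited raw counts per gene. They had filtered out ribosomal reads (Bowtie), required a quality score above 15, mapped to hg38 by STAR with default settings and counted uniquely mapped reads by HTSeq. Not given in the sources used here are versions, annotation release, contigs, read length and strand setting.

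Of 56306 rows, 2 repeated rows without counts were left out. In R 4.3.3, edgeR 4.0.16 kept 15529 genes by filterByExpr (minimum count 10, minimum total 15), scaled by TMM and ran the quasi-likelihood test, invasion zone over core, without a replicate term, with Benjamini-Hochberg adjustment over all genes tested. Genes were called at an adjusted p under 0.05 with a change of at least 2-fold. SEs are the log2 fold change over the root of F. Alternatives were a replicate block, DESeq2 1.42.0, limma 3.58.1 with voom, other scalings and filters, thinning, and leaving out each library.

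Groups came from the sample titles. Because the protocol speaks of an invasion zone that corresponds to each core, libraries with the same replicate number were treated as pairs in the within-replicate ratios and the blocked fits. The main edgeR test did not use the pairs. Within each replicate the column headers of core and invasion zone carry consecutive numbers, whose meaning is not stated. No source used here ties a replicate number to one spheroid, one day or one batch. Deviations of the replicate 1 libraries from their zone means correlated at 0.58 across genes. With 2 libraries per zone, the replicate 2 deviations are the same with the sign reversed, so that pair adds no second value. Nothing states that the libraries of a zone came from separate cultures, so p-values measure only the spread between these libraries. Counts of a zone's libraries differed beyond sampling noise (chi-square per degree of freedom 33.8 and 31.9). Floors cover counting error only.

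The 9 genes and all lists were chosen with earlier results of these data known, and the motifs after the promoter windows had been seen. Named genes were the 9, the 3 tested genes of each other list with the highest mean CPM, and any called gene of a list of up to 5, of which 2 are not reported here by themselves. GENCODE 44 holds 98.1% of the identifiers. The GENCODE interval reaches into or past the window for 6 of the 7 genes, all but TAP2.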

Additional observations from a re-analysis of the deposited data

How the results depend on the processing

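The direction of the 9 genes held in most settings. Of 127 alternative values for single genes or their heavy chain sum, 106 kept their direction and side of the threshold, 20 came to pass it, and 1 reversed, HLA-F without core replicate 1 (log2 fold change 0.26, in a range of -1.32 to 0.26 over the left-out libraries). Without a replicate block, the edgeR test called 0 genes, and it also called 0 with RLE or upper-quartile scaling, with at least 10 counts in every library, with limma voom, and with no fold change minimum. With the replicate block, it called 530 genes higher and 1097 lower, 2 of the 9 genes lower, and 19 pathway genes lower and 1 higher. Without a low-count filter (32869 genes) these were 427, 846, 2 and 16, with 0 pathway genes higher. DESeq2 called 354 genes higher and 548 lower, 2 of the 9 lower and 8 pathway genes lower. DESeq2 with the replicate block called 427 and 731 genes, 2 of the 9 lower, and 11 pathway genes lower and 1 higher. Limma voom with the replicate block called 575 and 1088 genes, 2 of the 9 lower, and 16 pathway genes lower and 1 higher. At an unadjusted p under 0.05 with the 2-fold change there were 454 higher and 909 lower genes, 2 of the 9 lower and 12 pathway genes lower. The pair called was HLA-B and HLA-E with the block, without the filter and in DESeq2. With all libraries thinned to 11789243 counts, 0 genes were higher and 2 lower. Leaving out single libraries gave 13 to 632 higher and 125 to 1137 lower genes, 0 to 5 of the 9 genes lower, and 2 to 23 pathway genes lower with 0 to 2 higher, with the spread of the single library left in a zone taken from the other zone. The lowest counts came without core replicate 1 (13 higher and 125 lower). The share of higher calls was 32.6% with the block, 33.5% without the filter, 39.2% in DESeq2, 9.42% without core replicate 1 and 48.7% without core replicate 2. The cause of these differences was not tested. With 2 libraries per zone, an absent call does not show an absent difference, and HLA-F rests on 13 to 140 counts with core replicates at 3.91 and 1.39 CPM.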

Other observations

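The marker check held values that belong to no comparison of the class I genes. WNT5A, a Wnt ligand of dedifferentiated melanoma, was at 180 and 81.2 CPM in the core against 54.0 and 17.9 CPM in the invasion zone (log2 fold change -1.84, edgeR adjusted p 0.165 without the block and 4.77e-05 with it). EGFR, the epidermal growth factor receptor, was at 135 and 192 CPM in the core against 195 and 207 CPM in the invasion zone (log2 fold change 0.30, edgeR adjusted p 0.412 without the block and 0.0357 with it, under the 2-fold change in both). MLANA and PMEL, melanosome genes, were at or under 1.01 CPM in every library.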
